A study of Mus musculus with 6 samples.

Results

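The genes described here are the 3 colony-stimulating factors Csf1, Csf2 and Csf3 together with Il34, which codes for interleukin-34. They were found by their symbols in the deposited table, where each of the 4 has 1 row among the 29595 genes listed. All 4 passed the filter on low counts, as did 17824 genes in all. The cells were TKPTS, a mouse line derived from the kidney's proximal tubule, the stretch of the nephron that takes back most filtered solutes. They were grown in plates and transfected with 1 of 2 plasmids, and the study's methods put the harvest 24 h later. The Hnf3a group (3 libraries; genotype labelled HNF3alpha overexpression) received pcDNA3.1-Hnf3a-Flag, which carries a Flag-tagged HNF3α, a forkhead transcription factor whose mouse gene is Foxa1. The pcDNA group (3 libraries; genotype labelled WT) received pcDNA3.1-Flag, the same vector without the insert. Both groups are therefore transfected cells of 1 line, and an untransfected group was not analysed here. The labels name no TGF-β1 or other agent. The 4 genes were chosen by family, with their values in this same comparison of Hnf3a and pcDNA counts already known. Their own differences are therefore given as a description, with standard errors (SE) and without p-values. Where the text says whether 1 of them had an adjusted p under 0.05, that too is a description and no support.

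Colony-stimulating factors are secreted proteins that drive the growth and survival of myeloid cells. Csf1 and Il34 code for ligands of the same receptor, the receptor tyrosine kinase Csf1r of monocytes and macrophages, although their sequences are unrelated. Csf2 (GM-CSF) acts on granulocytes, macrophages and dendritic cells through a receptor with its own alpha chain and the shared beta chain Csf2rb. Csf3 (G-CSF) drives the production and release of neutrophils through Csf3r. In the kidney, tubule cells are a known source of Csf1 and Il34 after injury, and both have been tied to the macrophages that gather there. The messenger RNAs of Csf2 and Csf3 are textbook examples of short-lived transcripts with AU-rich elements, stretches with the pentamer ATTTA in the 3′ untranslated end that are bound by proteins speeding or slowing decay.

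The 4 genes differed in these elements. Decay of the transcripts was not measured, and a link between the elements and the differences between the groups was not tested. Stretches are shown for Csf2, Csf3 and Csf1. Each is the 30-base window with the most pentamers in the 3′ untranslated end of the annotated transcript with the longest such end, read from the GENCODE vM21 transcripts (GRCm38) on the strand of the gene, with the pentamers in capitals. The Csf2 window lies at chr11:54247329-54247358 (minus strand), the Csf3 window at chr11:98702984-98703013 (plus strand) and the Csf1 window at chr3:107741109-107741138 (minus strand).
Csf2: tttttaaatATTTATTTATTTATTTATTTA
Csf3: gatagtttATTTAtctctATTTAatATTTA
Csf1: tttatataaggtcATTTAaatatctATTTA

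The Csf2 window held 5 overlapping pentamers in a row, the Csf3 window 3 that stood apart and the Csf1 window 2. Over the whole 3′ untranslated end, Csf2 had 9 pentamers in 317 bases, Csf3 had 6 in 669 bases, Csf1 had 4 in 2111 bases and Il34 had 1 in 605 bases. Per 1000 bases this came to 28.4 for Csf2, 8.97 for Csf3, 1.89 for Csf1 and 1.65 for Il34. Of 13615 tested genes with a complete annotated 3′ untranslated end, 0.0514% had at least the density of Csf2, 1.2% at least that of Csf3, 36.9% at least that of Csf1 and 41.7% at least that of Il34. The longer motif TTATTTATT occurred 4 times in Csf2, with overlaps, and 0 times in Csf3, Csf1 and Il34. At least 4 were present in 0.279% of the 13615 genes. Of the 4 Csf1 transcripts whose 3′ untranslated end is annotated whole, 2 carry the long one and the others have 0 pentamers in 145 and 259 bases. The table gives 1 value per gene and does not separate its transcripts.

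RefSeq promoter sequences, from 250 bases before to 50 bases after the start, were at hand for 2 of the 4 genes, Csf1 and Csf2. That of Csf1 (GRCm38.p6, chr3:107760420-107760719, minus strand) is shown because it holds a match to the NF-κB consensus, marked in capitals, which begins 154 bases before the start.
Csf1 promoter: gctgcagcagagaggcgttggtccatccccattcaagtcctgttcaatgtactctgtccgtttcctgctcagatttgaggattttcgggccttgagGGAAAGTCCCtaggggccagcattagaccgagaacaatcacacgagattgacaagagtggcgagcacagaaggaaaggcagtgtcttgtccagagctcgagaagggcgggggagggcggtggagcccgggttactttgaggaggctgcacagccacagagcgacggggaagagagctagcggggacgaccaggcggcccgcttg

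A match to that consensus on either strand was present in 4.51% of 32851 promoters of the same length. Neither promoter held the forkhead words TGTTTAC (in 3.65% of promoters) or TGTTTGC (in 5.07%), the AP-1 word TGANTCA (7.81%), the C/EBP word TTGCGCAA (0.183%), the STAT word TTCNNNGAA (8.3%) or the ETS word CCGGAAG (8.86%), searched on both strands. The Csf2 window, chr11:54249850-54250149, is placed on a RefSeq start 232 bases upstream of the start in the gene annotation, so it does not reach the annotated start. A match or its absence describes these windows only.

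The values are estimated counts per gene and FPKM, fragments scaled by transcript length and library depth, which allows levels to be set side by side between genes. Total estimated counts ran from 60473818 to 71154667 per library, and about 4 counts correspond to 1 sequenced fragment. A gene at or under 12 counts, about 3 fragments, is treated as not detected, a limit that covers counting error only. Foxa1 itself was 31.3-fold higher in the Hnf3a group (log2 fold change 4.97, SE 0.067), with 69508 to 80803 counts against 2134 to 2416. The tubule markers were mixed. The epithelial genes Krt8, Krt18, Epcam and Cdh1 and the kidney factor Pax8 were at 29.2 to 247 FPKM in the group means, whereas the proximal tubule genes Lrp2 and Cubn were under 0.05 FPKM and Slc5a2 had 0 to 3 counts. Hnf3a replicates 2 and 3 stood apart. Of 9 fibroblast genes, 4 were above 12 counts in Hnf3a replicate 1 and all 9 in replicates 2 and 3, against 1, 3 and 2 in the pcDNA libraries in order of replicate. Their summed level ranged from 0.236 to 9.63 FPKM in the Hnf3a group and from 0.126 to 0.202 FPKM in the pcDNA group. Of 12 macrophage genes, 3 were above 12 counts in Hnf3a replicate 1 and all 12 in replicates 2 and 3, against 4, 5 and 4 in the pcDNA libraries. Their summed level, 33.4 to 41.0 against 47.3 to 50.4 FPKM, came mostly from Cd14 and Cd68. In the group means Cd14 was at 22.7 against 36.6 FPKM and Cd68 at 11.8 against 11.6 FPKM. C1qa and Tyrobp were at 0 in Hnf3a replicate 1 and in every pcDNA library. Other macrophage genes were not absent from the pcDNA libraries, where Lyz2 had 16, 44 and 6 counts and Itgam 9, 21 and 8. Neutrophil genes above 12 counts numbered 6, 3 and 5 of 9 against 3, 6 and 3, with a summed level of 21.5 to 24.9 against 28.1 to 29.2 FPKM. That sum came mostly from Ly6g, at 14.4 against 14.7 FPKM in the group means, and Ltf, at 7.2 against 12.6 FPKM. Ltf was lower in the Hnf3a group (log2 fold change -0.81, edgeR adjusted p 5.07e-06). Elane, Mpo, Camp and Cxcr2 had 0 to 16 counts in any library. Of the 4 T cell genes in the table, Cd3g, Cd4 and Cd8a had 0 to 4 counts in any library and Lck was above 12 counts in all 6. The summed level of the 4 was 5.62 to 6.62 against 5.94 to 6.72 FPKM. Endothelial genes above 12 counts numbered 4, 5 and 4 of 6 against 2, 3 and 2, with sums of 0.478 to 0.521 against 0.758 to 1.01 FPKM. The sum came mostly from Cdh5, at 0.362 against 0.846 FPKM in the group means (log2 fold change -1.23, edgeR adjusted p 0.000821). Tek was called higher, with 11, 15 and 16 counts against 0 in each pcDNA library (edgeR adjusted p 0.0194). Differences of the 4 genes were therefore also computed from Hnf3a replicate 1 alone against the pcDNA libraries.

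Of the 4 genes, Csf1, Csf2 and Csf3 were lower in the Hnf3a group at an adjusted p under 0.05 in edgeR's quasi-likelihood test across all genes, and 0 were higher. Across the 17824 genes, 3.17% passed that threshold, 2.13% lower and 1.04% higher in the Hnf3a group. The groups did not overlap for Csf1, Csf2 and Csf3, which was the case for 18.9% of all genes tested. Because the family was chosen with this comparison in view, nothing is read from these counts. In bulk RNA, fewer cells that make a transcript and less of it per cell cannot be told apart. The labels do not say that the libraries come from separate cultures, so any error given here measures the spread between these libraries.

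**Figure D1:**
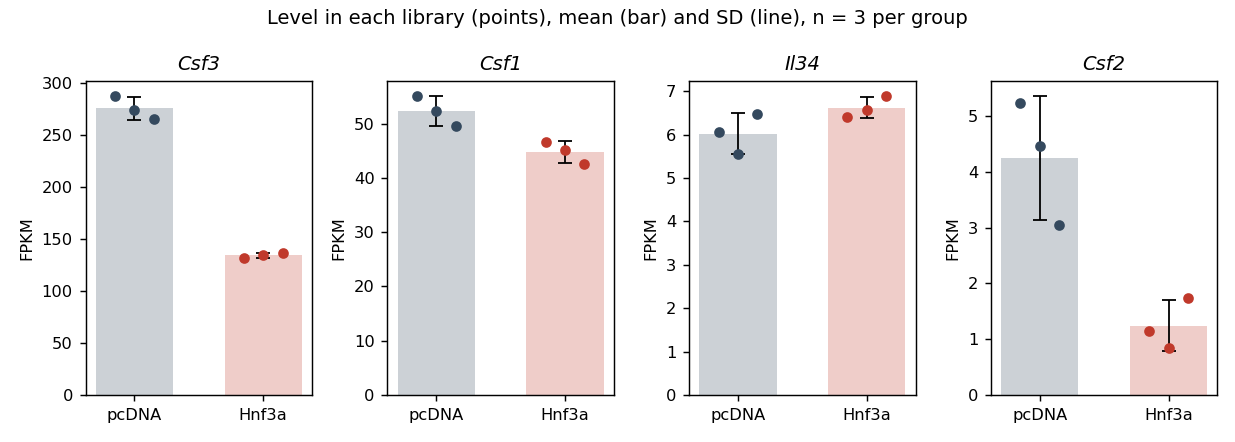
FPKM of Csf3, Csf1, Il34 and Csf2 in each library (points), with the group mean (bar) and SD (line) of 3 libraries; each panel has its own axis from 0. The 3 Hnf3a points lie under the 3 pcDNA points for Csf3, Csf1 and Csf2, and the groups overlap for Il34.

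Csf3 (ENSMUSG00000038067; GRCm38 chromosome 11, 98701263 to 98703629, plus strand; 5 exons) was the most abundant of the 4. Its level was 132, 135 and 136 FPKM with the Hnf3a plasmid, in order of replicate, and 288, 274 and 265 FPKM with the empty vector. All Hnf3a libraries lay close together and far below the lowest pcDNA library. The means were 134 ± 2.3 FPKM (SD, n = 3) and 276 ± 11.2 FPKM (SD, n = 3), so that Csf3 was 2.06-fold higher in the pcDNA group (log2 fold change of Hnf3a over pcDNA -1.04, SE 0.035). From Hnf3a replicate 1 alone it was -1.06. In rank by FPKM among the tested genes, Csf3 was at the 99.3th percentile in the pcDNA group and the 98.3th in the Hnf3a group. No annotated gene overlaps it.

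Csf2 (ENSMUSG00000018916; chromosome 11, 54247271 to 54249667, minus strand; 4 exons) lies on the same chromosome as Csf3 and was the least abundant. It had 67, 54 and 102 estimated counts with the Hnf3a plasmid, in order of replicate, and 284, 263 and 178 with the empty vector. At 4 counts per fragment this is 13.5 to 25.5 fragments against 44.5 to 71 fragments. Its fold change was the least precise of the 4, with the largest SE. In FPKM the libraries were at 1.15, 0.839 and 1.73 against 5.24, 4.47 and 3.04. The group means were 1.24 ± 0.454 FPKM (SD, n = 3) and 4.25 ± 1.11 FPKM (SD, n = 3). The lowest pcDNA library, replicate 3, was still above the highest Hnf3a library, also replicate 3. Csf2 was thus 3.44-fold higher in the pcDNA group (log2 fold change -1.78, SE 0.27). Leaving out 1 library gave log2 fold changes from -2.09, without Hnf3a replicate 3, to -1.56, without Hnf3a replicate 2, and Hnf3a replicate 1 alone gave -1.88. An antisense gene, Gm12223, overlaps Csf2 and had 3 counts in pcDNA replicate 1 and 0 elsewhere.

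Csf1 (ENSMUSG00000014599; chromosome 3, 107741048 to 107760469, minus strand; 9 exons in the longest transcript) had the narrowest difference of the 3. It was at 46.6, 45.1 and 42.7 FPKM with the Hnf3a plasmid and at 55.1, 52.3 and 49.6 FPKM with the empty vector. The closest libraries, Hnf3a replicate 1 and pcDNA replicate 3, did not cross. The means were 44.8 ± 1.97 FPKM (SD, n = 3) and 52.3 ± 2.77 FPKM (SD, n = 3), 1.17-fold higher in the pcDNA group (log2 fold change -0.23, SE 0.043). Csf1 no longer passed the threshold without Hnf3a replicate 2 (-0.23), without pcDNA replicate 1 (-0.19), without pcDNA replicate 2 (-0.23) or from Hnf3a replicate 1 alone (-0.17), nor in the 3 limma fits on FPKM.

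Il34 (ENSMUSG00000031750; chromosome 8, 110741829 to 110805903, minus strand; 8 exons in the longest transcript) did not pass the threshold. Its levels were 6.41, 6.57 and 6.89 FPKM with the Hnf3a plasmid and 6.06, 5.55 and 6.48 FPKM with the empty vector. The groups overlapped, since pcDNA replicate 3 was above Hnf3a replicate 1. The means were 6.62 ± 0.245 FPKM (SD, n = 3) and 6.03 ± 0.466 FPKM (SD, n = 3), and Hnf3a replicate 1 alone gave a log2 fold change of 0.089, beside 0.13 (SE 0.082) from all libraries. It was thus the 1 member with a positive estimate, which stayed between 0.072 and 0.18 over the reported fit and the 17 other fits. Antisense genes Gm15894 and Gm15895 overlap Il34. They had 7 to 18 and 106 to 200 counts per library against 801 to 1021 for Il34, and whether the counting used strand is not given in the sources used here.

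**Figure D2:**
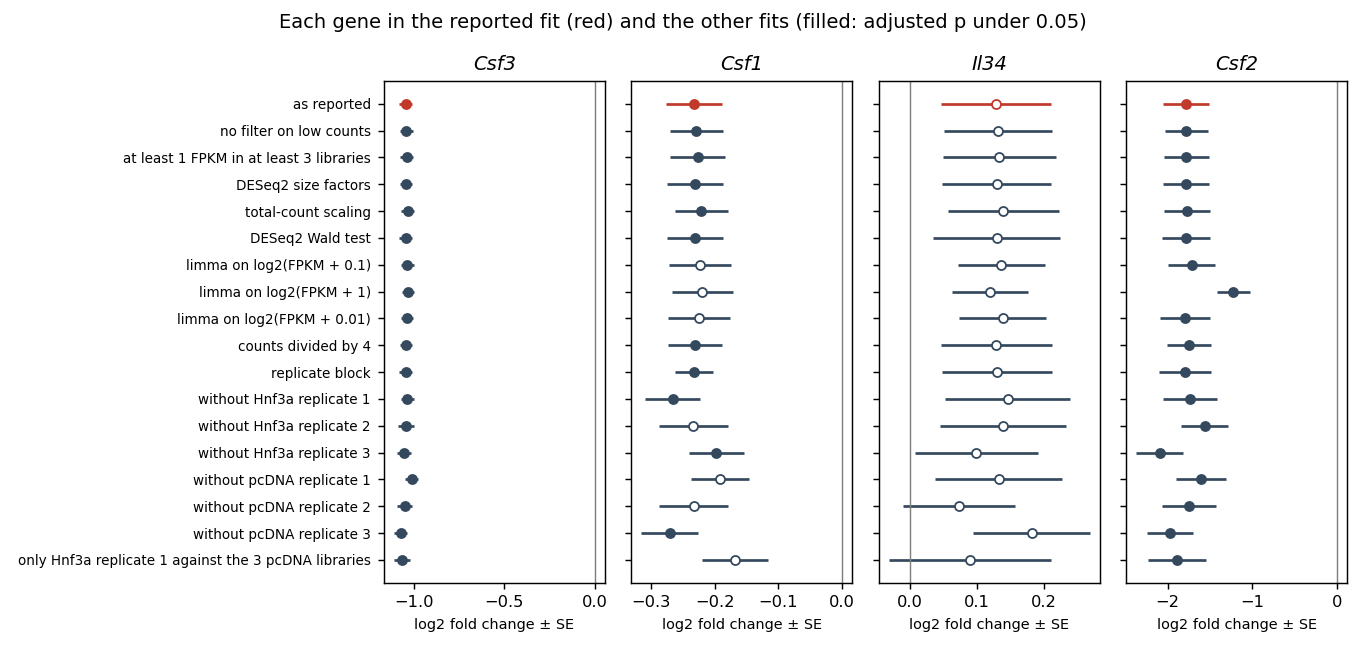
log2 fold change of Csf3, Csf1, Il34 and Csf2 (Hnf3a against pcDNA, points, with standard errors) in the reported fit (red) and 17 other fits (dark), 1 per line; filled points have an adjusted p under 0.05. Csf3 stays between -1.07 and -1.01 and Csf2 between -2.09 and -1.22, both filled throughout, Csf1 is open in 7 of the other fits, and Il34 is open in every fit and above 0.

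In every library the order of the levels was Csf3, Csf1, Il34 and Csf2, and no neighbours in this order overlapped within a group. In the pcDNA group the closest neighbours were Il34 and Csf2, at 5.55 to 6.48 FPKM against 3.04 to 5.24 FPKM. The sum of the 4 was 186 to 188 FPKM with the Hnf3a plasmid and 325 to 354 FPKM with the empty vector. Csf3 made up 81.2% to 81.8% of that sum in the pcDNA libraries and 70.9% to 72.7% in the Hnf3a libraries. Csf1 made up 15.3% to 15.6% and 22.7% to 25%, Il34 1.65% to 2.00% and 3.45% to 3.67%, and Csf2 0.938% to 1.48% and 0.447% to 0.924%. Since Csf3 made up most of the sum, its lower level in the Hnf3a libraries alone raises the shares of the others, and the shares of Csf1 and Il34 carry no separate result.

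**Figure D3:**
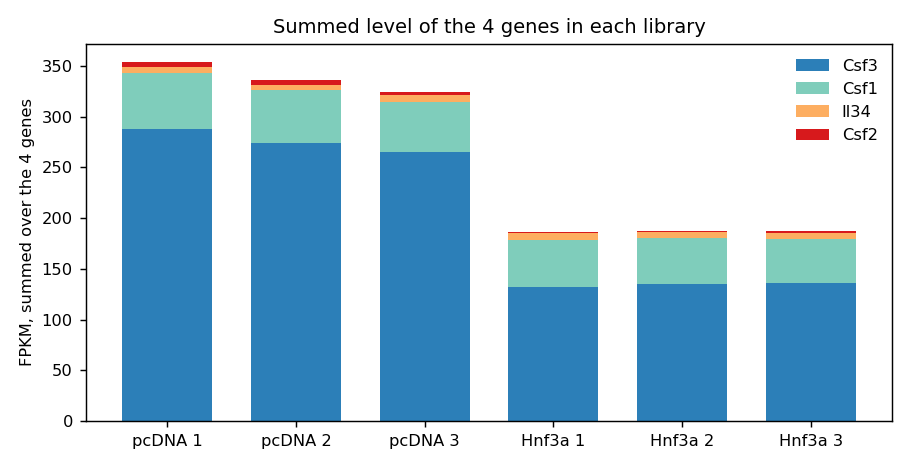
FPKM of Csf3, Csf1, Il34 and Csf2 stacked for each of the 6 libraries. The pcDNA libraries reach 325 to 354 FPKM in sum and the Hnf3a libraries 186 to 188 FPKM, and most of the gap is in the Csf3 layer.

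The ratio of the 2 abundant factors, Csf3 to Csf1, was 2.83, 2.99 and 3.19 with the Hnf3a plasmid, in order of replicate, and 5.22, 5.24 and 5.35 with the empty vector. The ratio varied little within the pcDNA group. The ratio of Csf1 to Il34, the 2 ligands of 1 receptor, was 7.26, 6.87 and 6.19 against 9.10, 9.42 and 7.66. These ratios of FPKM within a library do not depend on its scaling.

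The receptors were compared next, as genes of a list. This list and those that follow were drawn up with earlier results of these data known. Their p-values and calls are therefore descriptive and no independent support. Of the 7 receptor genes, 4 passed the filter and 0 passed the threshold in edgeR's test, beside 3.17% of all genes tested. With 4 genes a count of 0 is near that share and is not read as a result. Of the 4, 2 had an unadjusted p under 0.05 in edgeR and the DESeq2 Wald test called 0. The median log2 fold change of the 4 was 0.741, against 0.000845 over all tested genes, and 2 of the 4 were above 12 counts in all 6 libraries. Csf1r, the receptor of both Csf1 and Il34, was at 1.81, 1.86 and 1.96 FPKM with the Hnf3a plasmid and 1.77, 1.303 and 1.56 FPKM with the empty vector (log2 fold change 0.28, SE 0.11, edgeR adjusted p 0.26, and 0.143 to 0.611 over the 17 other fits). Sdc1, a syndecan that also binds interleukin-34, was the most abundant of the receptor genes at 44.3 against 42.2 FPKM (log2 fold change 0.063, edgeR adjusted p 0.533).

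Receptors for the products of Csf2 and Csf3 were near the detection limit. Csf3r had 4 to 7 counts with the Hnf3a plasmid and 0 in each pcDNA library, so all 6 were under the limit. The beta chain Csf2rb had 10, 43 and 48 counts against 0, 12 and 0 (log2 fold change 2.96, SE 1.06, edgeR adjusted p 0.23), and the alpha chain Csf2ra had 0, 20 and 29 against 0, 12 and 8. Csf2rb2, a close copy of Csf2rb whose reads may be shared with it, had 0, 27 and 15 against 3, 4 and 0. Csf2rb, Csf2ra and Csf2rb2 exceeded 12 counts in Hnf3a replicates 2 and 3 alone, where every listed macrophage and fibroblast gene was also above that limit. The part of such cells in the counts was not tested. Csf2rb passed the threshold in 1 other fit, without pcDNA replicate 2 (edgeR adjusted p 0.036), and its adjusted p ran up to 0.853. Ptprz1, a phosphatase that binds interleukin-34, was in the same range, with 0 to 23 counts.

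Other secreted growth factors and cytokines were taken as a list of 15 genes. Of these 14 were in the table, 11 were tested, 2 were lower and 1 was higher in the Hnf3a group at an adjusted p under 0.05, beside 2.13% lower and 1.04% higher of all genes tested. The median log2 fold change of the 11 was -0.0103. Lif, a cytokine of the interleukin-6 family, was the most abundant, at 72.1, 76.6 and 74.4 FPKM with the Hnf3a plasmid and 101, 101 and 99.2 FPKM with the empty vector. Lif fell (log2 fold change -0.44, SE 0.030, edgeR adjusted p 1.28e-06), and did so in all 17 other fits. Tslp, an epithelial cytokine that acts on dendritic cells, was at 3.91, 3.78 and 3.39 FPKM against 6.25, 5.50 and 5.47 FPKM (log2 fold change -0.64, edgeR adjusted p 0.00523). It lost the call in 1 of the 17 other fits, from Hnf3a replicate 1 alone (log2 fold change -0.55). Il11, another member of the interleukin-6 family, rose from 0.629, 0.421 and 0.494 FPKM with the empty vector to 0.948, 1.32 and 0.831 FPKM with the Hnf3a plasmid (log2 fold change 0.99, edgeR adjusted p 0.0369). Il11 lost the call in 10 of 16 other fits, among them those without Hnf3a replicate 1 or 2 (1.05 and 0.79 on the log2 scale), without pcDNA replicate 1, 2 or 3 (1.16, 0.87 and 0.96) and with the replicate block (0.98). The next most abundant genes of the list that were not called, Il33 and Vegfa at 15.1 to 16.5 FPKM and Pdgfa at 1.79 to 2.03 FPKM in the group means, did not pass the threshold, with log2 fold changes of -0.038, -0.010 and 0.18 (edgeR adjusted p 0.814, 0.974 and 0.641).

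The signalling genes downstream of these receptors followed. Of 20 kinases, STAT factors, suppressors and adaptors, 19 were tested and 0 passed the threshold in edgeR, beside 3.17% of all genes tested. With 19 genes a count of 0 is near that share and is not read as a result. In edgeR 4 had an unadjusted p under 0.05, and 1 gene, Socs2, was called by the DESeq2 Wald test (log2 fold change -0.15). Gab2 passed without Hnf3a replicate 3 (-0.26), and Gab2 and Socs2 passed from Hnf3a replicate 1 alone (-0.34 and -0.25). The median log2 fold change was -0.0385. The phosphatase Ptpn11 and the adaptor Grb2 were among the most abundant, at group means of 34.8 to 35.9 FPKM, with log2 fold changes of -0.0098 and 0.0011 (edgeR adjusted p 0.939 and 0.995). Socs3, which is induced by G-CSF signalling in myeloid cells and limits it, was at 12.9 FPKM in the Hnf3a and 13.0 FPKM in the pcDNA group (log2 fold change -0.013, edgeR adjusted p 0.957).

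Among the genes whose products bind or cut short-lived transcripts, 14 of 14 were tested, 2 were lower and 0 higher, beside 2.13% and 1.04% of all genes tested. The median log2 fold change of the 14 was -0.065. Zc3h12a (Regnase-1), a ribonuclease that cuts stem-loops in transcripts of inflammatory genes, was at 11.8 FPKM in the Hnf3a group and 21.4 FPKM in the pcDNA group (log2 fold change -0.86, SE 0.051, edgeR adjusted p 5.18e-07) and passed the threshold in all 17 other fits. Zfp36l1, which binds AU-rich elements and promotes decay, was at 66.7 against 74.5 FPKM (log2 fold change -0.17, edgeR adjusted p 0.0288) and lost the call in 9 of the 17, among them those without Hnf3a replicate 2 or 3 (-0.16 and -0.13), without pcDNA replicate 1, 2 or 3 (-0.15, -0.18 and -0.17) and from Hnf3a replicate 1 alone (-0.088). Its relative Zfp36l2, the most abundant of the list, did not pass the threshold (log2 fold change -0.095, edgeR adjusted p 0.145). Nor did Mapkapk2, a kinase that restrains decay (-0.10, edgeR adjusted p 0.186), or the AU-rich element binder Hnrnpd (0.040, edgeR adjusted p 0.709).

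**Figure D4:**
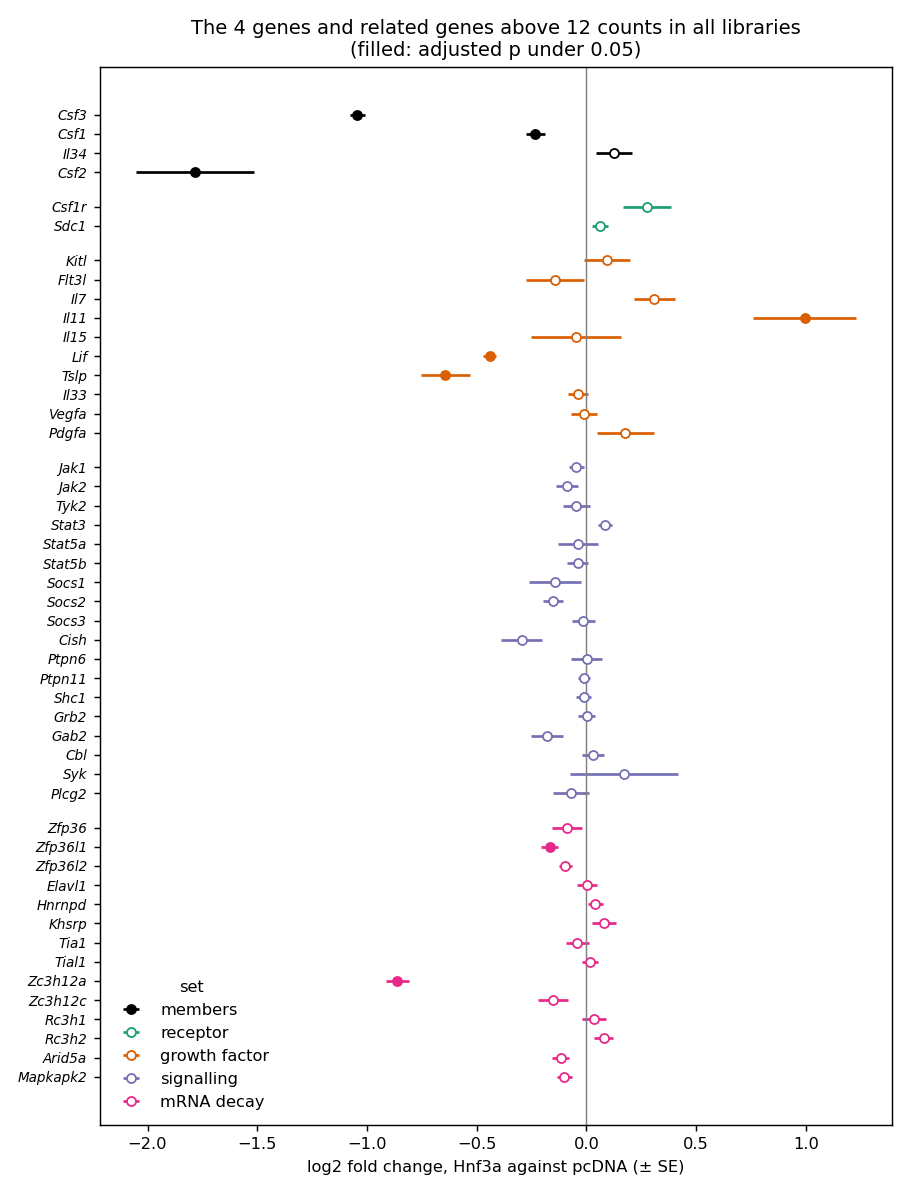
log2 fold change (Hnf3a against pcDNA, points, with standard errors) of Csf3, Csf1, Il34 and Csf2 and of related genes that exceeded 12 counts in all 6 libraries, coloured by list; filled points have an adjusted p under 0.05. Csf2, Csf3, Zc3h12a, Tslp and Lif lie furthest to the left and Il11 furthest to the right, while the signalling genes drawn are all open.

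Genes around the 4 members were described next. Within 100 kb, 1 tested gene lay beside Csf1, 1 beside Csf2, 8 beside Csf3 and 7 beside Il34. Of these 17, 0 passed the threshold in edgeR or in the DESeq2 Wald test, with 0 at an unadjusted p under 0.05 in edgeR. Of all genes tested, 3.17% passed in edgeR. With 17 genes a count of 0 is near that share and is not read as a result. Med24, whose gene ends 962 bases from Csf3, was at 11.9 FPKM in both groups (log2 fold change -0.0093, edgeR adjusted p 0.962), and Psmd3, a proteasome subunit gene 5284 bases away, was at 67.3 against 68.8 FPKM (log2 fold change -0.040, edgeR adjusted p 0.615). The other 6 beside Csf3 were Gsdma, Nr1d1, Msl1, Thra, Gm12359 and Srsf3-ps, with log2 fold changes from -0.28 to 0.068. Beside Csf1, Ahcyl1 had a log2 fold change of -0.015. Beside Il34, those of Vac14, Cog4, Fcsk, Sf3b3, Mtss2, Gm15894 and Gm15895 ran from -0.094 to 0.43. Acsl6, beside Csf2, had a mean of 0.0257 against 0.0076 FPKM and a log2 fold change of 1.69 (SE 0.80, edgeR adjusted p 0.39), with 0 to 24 counts per library.

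**Figure D5:**
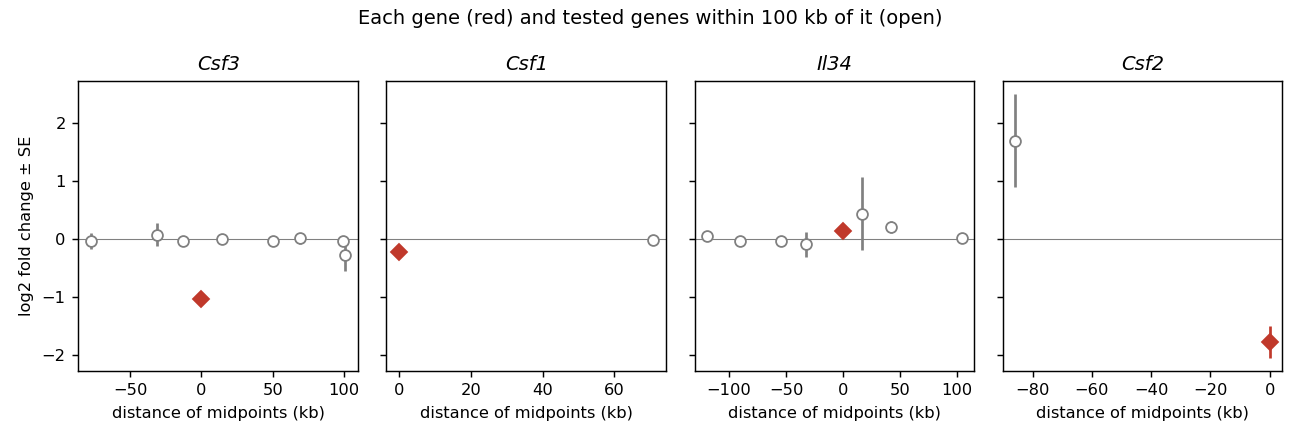
log2 fold change (Hnf3a against pcDNA, with standard errors) of Csf3, Csf1, Il34 and Csf2 (red diamonds) and of the tested genes within 100 kb of each (open circles), against the distance between gene midpoints in kb along the strand of the member. The 8 neighbours of Csf3 lie between -0.28 and 0.068 beside -1.04 for Csf3, and the wide point beside Csf2 is Acsl6.

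Finally, the genes whose log2 CPM followed each member most closely over the 6 libraries were listed among genes with a mean of at least 100 counts, by Pearson's r. This is a description over 6 points that share the 2 groups and the libraries' depth. For Csf3 they were Adam8, Rgs16, Nfkbiz, Nadk and Cxcl5, at r of 0.997 to 0.998. Cxcl5, a neutrophil-attracting chemokine, was at 256 against 532 FPKM in the group means. Its log2 fold change, -1.06, was close to that of Csf3, whereas those of the other 4 were -0.36 to -0.49. For Csf2 they were Bmp2k, Ccdc127, Aqp3, AC113595 and Arhgef5 (r of 0.989 to 0.995), with log2 fold changes from -0.51 to -0.083. For Csf1 they were Clca3a1, Rpp25l, Arcn1, Hps1 and Cptp (r of 0.987 to 0.998), with log2 fold changes from -0.79 to -0.046. For Il34 they were Slc39a7, Slc26a11, Dram2, Zxda and Bcat2 (r of 0.979 to 0.989), with log2 fold changes from 0.026 to 0.20. No gene appeared in more than 1 of these 4 lists.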

How the data were processed

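RNA sequencing libraries of TKPTS cells (3 Hnf3a, 3 pcDNA) were grouped and numbered by the sample titles. A company carried out sequencing and bioinformatics. Per the labels, libraries of poly(A) RNA marked the second strand with dUTP, carried unique molecular identifiers and were read as pairs of 150 bases. The submitters' processing notes name mm10, cutadapt 1.9, HISAT2 2.0.4, UMI-tools, StringTie 1.3.4d, DESeq2 and edgeR, without saying what each did. Which annotation was counted, whether by strand, and whether duplicates were removed is not given in the sources used here.

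The authors deposited whole-number estimated counts and FPKM per gene and library. In each library 4 was more frequent than 3 or 5 (for example 1148, 680 and 378 genes in Hnf3a replicate 1), so 1 fragment was taken as 4 counts. Coordinates of 3 of the 4 members equal those of GENCODE vM21 (GRCm38); the annotated end of Il34 lies further, at 110805924.

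Counts, which needed no rounding, were filtered (filterByExpr), scaled (TMM) and tested two-sided across 17824 genes with edgeR 4.0.16 (estimateDisp, robust glmQLFit, glmQLFTest; R 4.3.3) without covariates, and adjusted by Benjamini and Hochberg at 0.05. Standard errors are the absolute log2 fold change over the square root of F. With 3 against 3 libraries the smallest exact permutation p of 1 gene is 0.1, so p-values come from this model.

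The members and lists were chosen with earlier results of these data known. The rule named the members, Foxa1, list genes past the threshold, up to 3 further abundant tested genes per list, tested genes within 100 kb of a member, and the 5 genes most alike to each member by Pearson's r. Socs2, Socs3, Gab2, Csf2rb2, Ptprz1, Csf2rb, Csf3r and Gm12223 were named after their values were seen. Single cell type markers printed with values, such as Cd14, Ltf, Cdh5 and Tek, were also outside the rule. Some genes of the lists are not reported here. Alternatives were other filters, scalings, tools (DESeq2 1.42.0; limma 3.58.1, with trend and robust, on log2 FPKM after adding 0.1, 1 or 0.01, a scale that understates changes of low genes), counts divided by 4, the replicate block, and leaving out each library. Hnf3a replicate 1 alone against pcDNA was chosen after seeing the data.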

Additional observations from a re-analysis of the deposited data

How the results depend on the processing

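The 4 genes were chosen with this comparison known, and the lists with earlier results of these data known. Values in the other fits therefore describe how the estimates move and are no independent support. Csf3 ran from -1.07 to -1.01, Csf2 from -2.09 to -1.22 and Il34 from 0.072 to 0.18 on the log2 scale. Csf1 missed the threshold in 7 of the 17 other fits. These were limma on log2 FPKM after adding 0.1, 1 or 0.01 (log2 fold changes -0.224, -0.219 and -0.224), Hnf3a replicate 1 alone (-0.168), and the fits without Hnf3a replicate 2, pcDNA replicate 1 or pcDNA replicate 2. Over the 6 fits without 1 library, Csf1 ranged from -0.271 to -0.192.

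Over all genes, 565 were called in the reported fit, 265, 248 and 271 in the limma fits in the same order, 263 to 643 without 1 library and 322 from Hnf3a replicate 1 alone. Of the mRNA decay genes, 2 were called in the reported fit, 1 in each limma fit, 1 to 2 without 1 library and 1 from Hnf3a replicate 1 alone. Of the signalling genes, 1 was called by DESeq2, 0 to 1 without 1 library and 2 from Hnf3a replicate 1 alone. Of the receptor genes, 0 to 1 were called without 1 library. Of the growth factors, 1 was called from Hnf3a replicate 1 alone. The fit with the replicate block called 463 genes and changed no call of the 4 genes. Among the related genes it changed 1, Il11, which lost its call. Over all tested genes, deviations from the group means correlated at -0.0411, -0.0102 and 0.00998 for replicate numbers 1, 2 and 3. Such values cannot settle whether the numbers pair the libraries. The SE of Csf1 was 0.030 with the block and 0.043 without it. Those of Csf2 were 0.30 and 0.27, and those of Csf3 0.037 and 0.035. Csf2 and the receptors of Csf2 and Csf3 rest on few fragments per library, which limits their precision. How much of their spread comes from this was not tested. No direction of the 4 genes reversed in the fits run.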
